A study of Mus musculus with 24 samples.

Results

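Ebf1 was put back into mouse fetal liver cells that lack it, and the RNA of these cells was set against that of the same kind of cells given an empty vector. The comparison rests on 4 RNA libraries, 2 of Ebf1-KO cells carrying the retroviral vector pMiG with Ebf1 and 2 of Ebf1-KO cells carrying empty pMiG, chosen by their labels from 24 samples in the series, 14 of which are RNA libraries. All 24506 genes of the exon count table were considered and 14550 had enough reads to be tested. The cells came from Ebf1-deficient C57BL6/J fetuses, were expanded on OP9 stromal cells with KIT ligand, FLT3 ligand and interleukin-7, and were spin-infected with virus. The other RNA groups, of 2 libraries each, were Ebf1-KO cells with pMiG-Pax5, Pax5-KO cells with pMiG-Ebf1, with pMiG-Pax5 or with empty pMiG, and wild-type (WT) cells with empty pMiG. All 7 groups had thus been infected with a pMiG virus. The sources used here do not say whether vector-carrying cells were sorted, how long after infection RNA was taken, or whether replicates came from separate cultures, so p-values here cover the spread among these libraries alone, which may be technical.

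EBF1 is a DNA-binding transcription factor of the B lineage that binds as a dimer to a palindrome whose core is CCCNNGGG. Cells without it stop at an early stage of B cell development in the mouse and keep some capacity for other blood lineages. In B cell progenitors EBF1 is known to act on the genes of the surrogate light chain and of the CD79 signalling chains, and on Pax5, the factor that commits cells to the B lineage.

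The 2 libraries with Ebf1 had 20.9 M and 35.3 M exon counts and the 2 with empty vector had 20.5 M and 27.1 M, within a range of 16.1 M to 42.1 M over the 14 RNA libraries. Between replicates, log2 levels of the genes correlated at 0.965 in Ebf1-KO with Ebf1 and 0.971 in Ebf1-KO, across genes, which are not independent replicates. The ribosomal RNA precursor Rn45s took 19.2% and 12.2% of the counts with Ebf1 and 20.3% and 14.4% with empty vector. Levels below are in CPM, counts divided by the scaled library size in M, so they can be compared between libraries for 1 gene but not between genes, since they are not divided by length. Fold changes are log2 of Ebf1-KO with Ebf1 over Ebf1-KO. A gene is said to rise or fall only where its adjusted p in edgeR's quasi-likelihood test was under 0.05. That p has Benjamini-Hochberg adjustment over all tested genes. The value after ± is an approximate standard error worked back from this test. It is the size of the fold change over the square root of the test's F statistic. In bulk RNA, more cells that express a gene and more RNA per cell cannot be told apart, and this holds for every result.

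With Ebf1, 321 genes rose and 111 fell, which is 2.21% and 0.763% of the genes tested, or 2.97% together. The rises were large. Their median was 2.26 on the log2 scale, 177 of them were at least 2, and 73 of the risen genes averaged under 1 CPM in the empty-vector cells, 22 of these with 0 counts in both libraries. The falls had a median of -1.69, and 37 were at least 2 in size. The median over all tested genes was 0.00. In all 432 called genes the 2 pairs of libraries did not overlap, which was also true of 47.6% of all tested genes. The count of falls rested more on the fit than the count of rises: with only the 4 libraries fitted, 527 genes rose and 428 fell, so that 55.2% of the calls were rises against 74.3% here. DESeq2 gave 62.6% and a fit with no filter on low counts 64.0%.

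**Figure D1:**
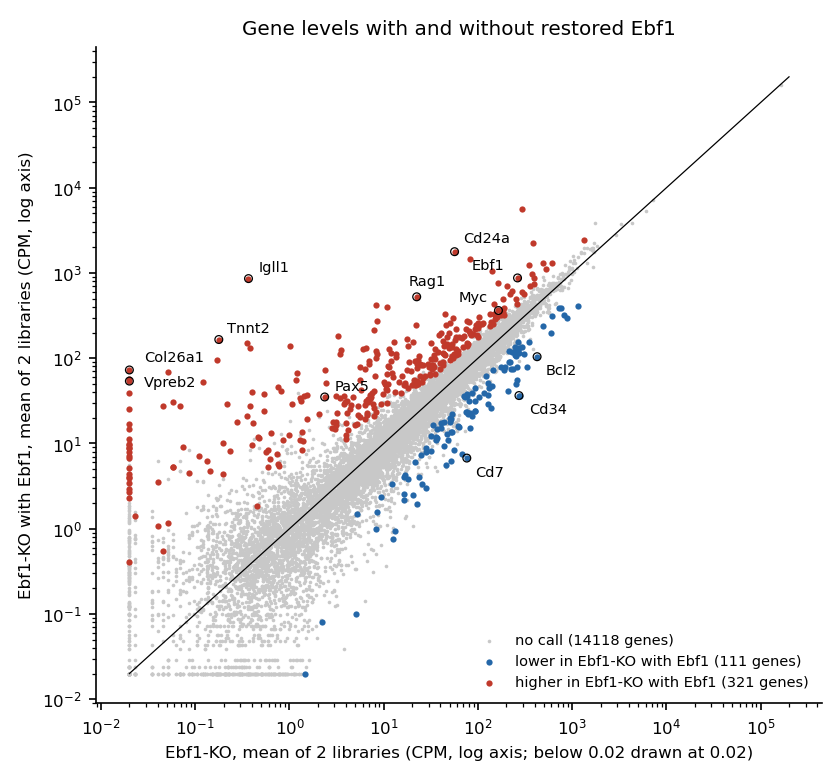
Each point is 1 tested gene, with its mean CPM in Ebf1-KO with Ebf1 on the vertical axis and in Ebf1-KO on the horizontal axis, both log axes, means of 2 libraries. The 321 risen and 111 fallen genes are coloured, and many of the risen genes sit at the left edge, where Ebf1-KO libraries had few or 0 counts.

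Ebf1 itself (NM_007897, chromosome 11, 44618100 to 45008096, mm10) read 857 and 893 CPM in Ebf1-KO with Ebf1, against 244 and 282 CPM in Ebf1-KO. The difference was 1.73 ± 0.19 (adjusted p = 7.7e-05), and the WT libraries, at 966 and 1102 CPM, did not pass against Ebf1-KO with Ebf1 (-0.24 ± 0.19, adjusted p = 0.506). Exon counts do not separate vector transcripts from those of the cells' own gene, and the labels do not state which exons the deletion took, so the reads in the Ebf1-KO libraries do not check that label.

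The surrogate light chain genes were among those that moved most. Their proteins, λ5 from Igll1 and VpreB from Vpreb1 and Vpreb2, stand in for the light chain that a pre-B cell has not yet made. Igll1 (NM_001190325, chromosome 16, 16860671 to 16863985, mm10) read 852 and 867 CPM with Ebf1, against 0.320 and 0.414 CPM in Ebf1-KO, a difference of 11.15 ± 0.84 (adjusted p = 1.3e-06). Its libraries with Ebf1 lay between the 2 WT libraries, at 1047 and 822 CPM. Vpreb1 (NM_016982, chromosome 16, 16868401 to 16869255) read 138 and 126 CPM with Ebf1 and 0.412 and 0.345 CPM in Ebf1-KO (8.44 ± 0.64, adjusted p = 1.6e-06), against 331 and 229 CPM in WT, a gap to WT that did not pass (-1.09 ± 0.43, adjusted p = 0.134). Vpreb2 (NM_016983, chromosome 16, 17980565 to 17981080) read 54.7 and 53.2 CPM with Ebf1 and had 0 counts in both Ebf1-KO libraries. It was at least 914-fold higher with Ebf1, taking a floor of 3 counts over the 2 Ebf1-KO libraries, or 0.0590 CPM (adjusted p = 4.9e-07). Vpreb1 and Vpreb2 are close copies, so how reads were split between them is uncertain.

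The 250 bases before the starts of these 3 genes are shown because the genes rose strongly, with almost no counts in the Ebf1-KO libraries, and an EBF1 ChIP-seq peak lies at each. The peaks are from the 230-238 pre-B line, not from these cells. The sequences are RefSeq's (GRCm38.p6), 5′ to 3′ on the strand of the gene: Igll1 at chr16:16863986-16864235 (minus), Vpreb1 at chr16:16869256-16869505 (minus) and Vpreb2 at chr16:17980315-17980564 (plus). Capitals mark matches, on either strand, to CCCNNGGG, the core of the palindrome, in Igll1 and to TTCCCNNG, which holds 1 arm of it, in Vpreb1 and Vpreb2.
Igll1: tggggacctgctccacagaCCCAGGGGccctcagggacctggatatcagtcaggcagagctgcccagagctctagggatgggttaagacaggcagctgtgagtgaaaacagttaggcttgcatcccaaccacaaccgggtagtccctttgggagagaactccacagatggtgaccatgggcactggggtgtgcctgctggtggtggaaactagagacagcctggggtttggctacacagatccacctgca
Vpreb1: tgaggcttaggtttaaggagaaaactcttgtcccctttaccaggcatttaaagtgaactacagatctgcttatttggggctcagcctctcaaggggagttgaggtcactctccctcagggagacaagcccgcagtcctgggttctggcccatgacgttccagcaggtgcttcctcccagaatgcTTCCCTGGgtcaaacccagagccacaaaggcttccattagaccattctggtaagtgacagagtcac
Vpreb2: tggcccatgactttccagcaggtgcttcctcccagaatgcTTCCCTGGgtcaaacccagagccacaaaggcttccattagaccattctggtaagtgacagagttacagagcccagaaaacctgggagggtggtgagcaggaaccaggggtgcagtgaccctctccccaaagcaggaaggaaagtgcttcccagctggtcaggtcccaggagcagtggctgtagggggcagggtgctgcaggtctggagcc
The Igll1 match spans bases -231 to -224 from the start and lies inside the peak, chr16:16864060-16864380, whose centre is at -235. In the authors' peak list that peak has a score of 330, the 31st highest of 17230. The Vpreb1 match spans -66 to -59 and the Vpreb2 match -210 to -203. Both matches sit in a run of 91 identical bases, which begins at -94 in Vpreb1 and nearer the far end of the window in Vpreb2.

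The CD79 chains, which carry the signal of the pre-B and B cell receptors, rose too but stayed below WT. Cd79a (NM_007655, chromosome 7, 24897511 to 24902197) read 34.2 and 41.7 CPM with Ebf1, against 0.549 and 0.518 CPM in Ebf1-KO (6.14 ± 0.34, adjusted p = 3.3e-08). WT libraries had 611 and 427 CPM, above both libraries with Ebf1 (-3.77 ± 0.27 against WT, adjusted p = 4.5e-07). Cd79b (NM_008339, chromosome 11, 106311341 to 106314562) read 123 and 129 CPM with Ebf1, against 3.11 and 3.94 CPM in Ebf1-KO (5.15 ± 0.26, adjusted p = 1.5e-08), and 571 and 456 CPM in WT. Vpreb3, another B lineage member of the VpreB family, had 3.90 and 4.05 CPM with Ebf1 and 0 counts in both Ebf1-KO libraries, at least 67.4-fold higher (adjusted p = 0.00158), against 369 and 326 CPM in WT.

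Of 18 tested genes of the pre-B receptor and surrogate light chain list, 10 rose and 8 did not pass, with a median of 1.82. Of 30 early B lineage genes, a list that shares members with the first, 20 rose and 10 did not pass, with a median of 3.27. DESeq2 called the same numbers higher and 1 member of each list lower. Over all tested genes 2.21% rose. Both lists were chosen with earlier results of these data known, so their counts, medians and sums are a description and no test. Summed over the early B list, the libraries held 5970 and 6374 CPM with Ebf1, 591 and 641 CPM in Ebf1-KO, and 15341 and 14419 CPM in WT. The calls of Blnk, Cd72 and Ralgps2 in these lists were lost without some of the 4 libraries, with largest adjusted p-values of 0.243, 0.243 and 0.156. Cd24a, the surface protein HSA used to stage B cell progenitors, read 1627 and 1929 CPM with Ebf1, against 54.9 and 58.0 CPM in Ebf1-KO (4.98 ± 0.23, adjusted p = 7.4e-09), and did not pass against WT, at 2489 and 2261 CPM (-0.42 ± 0.19, adjusted p = 0.208). Cecr2, a chromatin remodelling protein, read 1456 and 1488 CPM, against 79.5 and 83.2 CPM (4.18 ± 0.19, adjusted p = 7.4e-09), with 1669 and 1782 CPM in WT. Early B genes with Ebf1 thus stood at different distances from WT, with Cecr2 at -0.23 ± 0.16 (adjusted p = 0.450) and Vpreb3 at -6.45 ± 0.70 (adjusted p = 3.1e-05).

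**Figure D2:**
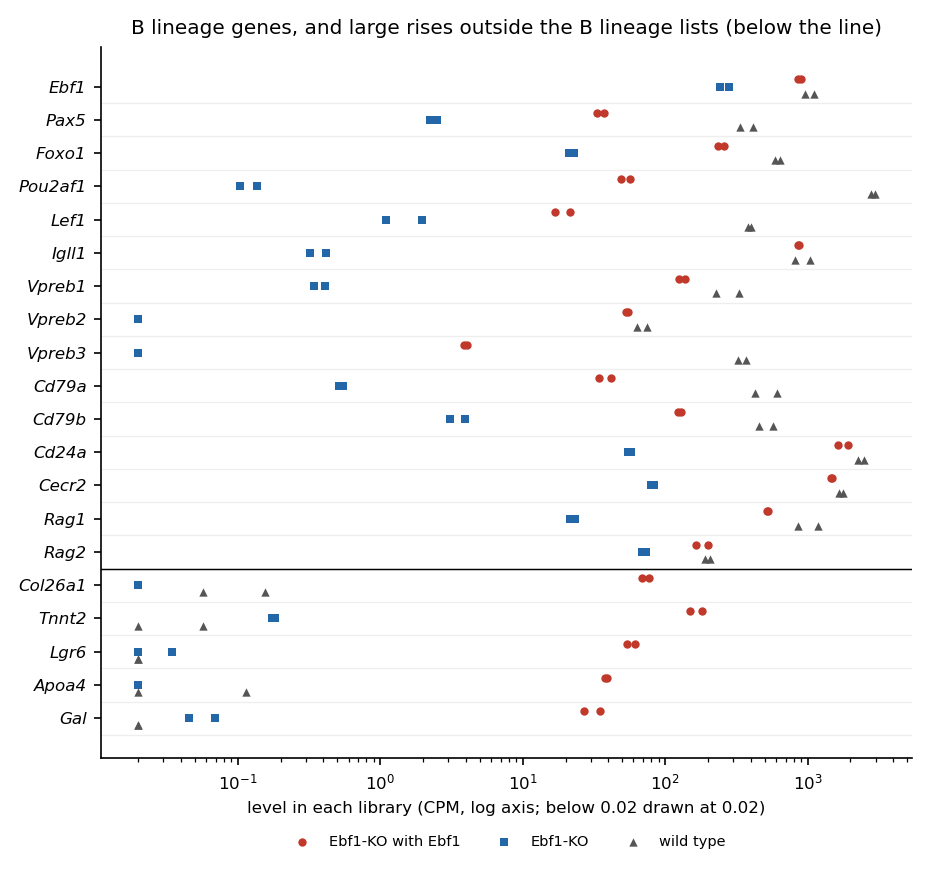
Each point is 1 library, on a log axis of CPM, for Ebf1-KO with Ebf1, Ebf1-KO and WT. In the upper rows Igll1 with Ebf1 sits beside WT while Vpreb3 and Pou2af1 sit between Ebf1-KO and WT, and below the line genes such as Tnnt2 stand far above both Ebf1-KO and WT.

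Rag1 and Rag2 encode the recombinase that cuts antigen receptor genes. Rag1 read 530 and 521 CPM with Ebf1, against 21.6 and 23.2 CPM in Ebf1-KO (4.55 ± 0.24, adjusted p = 2.1e-08), and remained lower than WT, at 854 and 1184 CPM (-0.96 ± 0.21, adjusted p = 0.00738). Rag2 read 164 and 201 CPM, against 69.0 and 73.2 CPM (1.36 ± 0.21, adjusted p = 0.00152), and 205 and 192 CPM in WT; it overlaps B230118H07Rik, so reads may be shared. Of 12 recombination genes these 2 rose and 10 did not pass, with a median of 0.49.

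Among transcription factors, Pax5 (NM_008782, chromosome 4, 44531506 to 44710440) read 37.2 and 33.1 CPM with Ebf1, against 2.24 and 2.49 CPM in Ebf1-KO (3.89 ± 0.31, adjusted p = 2.3e-06). WT libraries had 412 and 333 CPM, above both libraries with Ebf1 (-3.41 ± 0.29 against WT, adjusted p = 1.6e-06). Pou2af1, a coactivator of octamer-binding factors in B cells (NM_011136, chromosome 9, 51213690 to 51240079), read 49.1 and 57.0 CPM, against 0.137 and 0.104 CPM (8.75 ± 0.43, adjusted p = 1.3e-08). WT had 2980 and 2803 CPM, far above both libraries with Ebf1 (-5.77 ± 0.31 against WT, adjusted p = 3.0e-08). Foxo1, a forkhead factor restrained by PI3K signalling, read 258 and 236 CPM, against 23.0 and 21.3 CPM (3.48 ± 0.18, adjusted p = 2.1e-08), and 588 and 638 CPM in WT. Lef1, a factor of the Wnt pathway expressed in early B cells, read 16.9 and 21.4 CPM, against 1.97 and 1.10 CPM (3.66 ± 0.35, adjusted p = 1.5e-05), and 382 and 404 CPM in WT. 5730488B01Rik and Mir5120 overlap Pax5, so reads may be shared.

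Of 31 B lineage factors 10 rose, 1 fell and 20 did not pass, with a median of 0.32. Besides Ebf1 and the 4 above, the risen factors were Erg, Ets1, Myb, Pou2f2 and Spib, by 0.90 to 2.39. Of these, Erg kept its call without each of the 4 libraries. Ets1, Myb, Pou2f2 and Spib did not, with largest adjusted p-values of 0.0793, 0.145, 0.464 and 0.599. The factor that fell was Irf8, shared by B cells, dendritic cells and macrophages, at 28.8 and 33.6 CPM with Ebf1, against 70.1 and 116 CPM in Ebf1-KO (-1.58 ± 0.28, adjusted p = 0.00447). Irf8 did not keep that call without Ebf1-KO replicate 2 (0.1) or the first library with Ebf1 (0.0761). Hes1, a repressor induced by Notch, was the 1 gene of 23 E protein inhibitors and alternative-fate regulators that rose, with 29.3 and 33.0 CPM with Ebf1 and 1.01 and 1.62 CPM in Ebf1-KO (4.55 ± 0.58, adjusted p = 0.000259), against 26.4 and 28.8 CPM in WT. The other 22 did not pass and the list's median was -0.61.

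The promoters of Cd79a, at chr7:24897247-24897496 (plus), and Pou2af1, at chr9:51213440-51213689 (plus), are shown because both genes rose strongly and yet stayed far below WT, and because an EBF1 peak lies at each start. The source, strand and capitals are as above.
Cd79a: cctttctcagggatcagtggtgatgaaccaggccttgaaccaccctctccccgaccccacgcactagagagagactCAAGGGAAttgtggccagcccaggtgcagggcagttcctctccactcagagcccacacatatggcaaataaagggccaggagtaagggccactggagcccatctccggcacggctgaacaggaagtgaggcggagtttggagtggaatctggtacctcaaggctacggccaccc
Pou2af1: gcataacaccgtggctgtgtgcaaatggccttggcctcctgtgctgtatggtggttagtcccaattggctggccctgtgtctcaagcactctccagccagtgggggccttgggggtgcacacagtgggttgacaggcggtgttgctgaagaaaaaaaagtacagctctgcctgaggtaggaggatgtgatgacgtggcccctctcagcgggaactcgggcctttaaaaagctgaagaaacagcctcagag
The Cd79a match to TTCCCNNG is on the reverse strand, at -174 to -167, and the Pou2af1 window holds neither motif. That says only that these letters are not in this window. CCCNNGGG was in 31.3% of the windows of risen genes that lie under an EBF1 peak, against 26.1% of all 2673 windows under a peak, 10.6% of windows under none and 11.8% of all 32851 windows. For TTCCCNNG the shares in the same order were 23.9%, 22.0%, 17.4% and 17.8%. Of the 321 risen genes 218 matched a window by name.

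Myc (NM_010849, chromosome 15, 61985341 to 61990361), a driver of growth, read 308 and 418 CPM with Ebf1, against 143 and 187 CPM in Ebf1-KO (1.14 ± 0.25, adjusted p = 0.0214). The WT libraries, at 299 and 248 CPM, did not pass against Ebf1-KO with Ebf1 (0.41 ± 0.25, adjusted p = 0.367). Leaving out the second library with Ebf1 ended the call of Myc (0.302), as did leaving out Ebf1-KO replicate 1 (0.307) or Ebf1-KO replicate 2 (0.0514), or scaling by library totals alone (0.0727). Mycn, its relative in progenitor cells, read 34.1 and 48.2 CPM with Ebf1, against 176 and 238 CPM in Ebf1-KO (-2.33 ± 0.41, adjusted p = 0.00389), and 29.3 and 20.9 CPM in WT. Leaving out the first library with Ebf1 ended the call of Mycn (0.069). The other 10 genes of the 12 in the MYC and MAX list did not pass.

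Of 30 genes of DNA replication and G1/S, 5 rose, 1 fell and 24 did not pass, with a median of 0.42 and 28 fold changes above 0. E2f2, a transcription factor of S phase entry, read 245 and 291 CPM with Ebf1, against 76.1 and 83.3 CPM in Ebf1-KO (1.75 ± 0.24, adjusted p = 0.000598). Uhrf1, which keeps DNA methylation through replication, read 621 and 793 CPM, against 185 and 221 CPM (1.80 ± 0.26, adjusted p = 0.000744). The D-type cyclins, partners of CDK4 and CDK6, went different ways. Ccnd3 read 402 and 456 CPM, against 126 and 171 CPM (1.53 ± 0.24, adjusted p = 0.00151; it overlaps Bysl), and Ccnd2 read 859 and 1069 CPM, against 329 and 416 CPM (1.37 ± 0.23, adjusted p = 0.00336), a call lost without Ebf1-KO replicate 1 (0.0724); 9330179D12Rik overlaps it. Ccnd1 read 14.2 and 9.96 CPM, against 29.9 and 42.2 CPM (-1.58 ± 0.36, adjusted p = 0.0245). The calls of Ccnd1 and of Rrm2, a ribonucleotide reductase subunit, were lost without any 1 of the 4 libraries, with largest adjusted p-values of 0.382 and 0.515. Rrm2 (adjusted p = 0.0486) also lost its call with size factors (0.0505), with library totals only (0.2), with Rn45s left out (0.0593) and with WT left out (0.0761).

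Of 22 mitosis genes only Mki67 rose, by 0.89 ± 0.19 (adjusted p = 0.0161), with 2357 and 2556 CPM with Ebf1 and 1235 and 1424 CPM in Ebf1-KO, and leaving out any single library of the 4 ended the call (largest adjusted p 0.243), as did library totals alone (0.0502). All 22 had a fold change above 0, from 0.13 to 0.89, and the median of the list was 0.41. Their sum was 7353 and 8500 CPM with Ebf1 and 4774 and 5931 CPM in Ebf1-KO. Of 18 cell cycle brakes Cdkn1a, the CDK inhibitor p21, rose, with 513 and 722 CPM, against 164 and 291 CPM (1.44 ± 0.33, adjusted p = 0.0279). It did not pass without Ebf1-KO with Ebf1 replicate 2 (0.289) or Ebf1-KO replicate 1 (0.365), and WT libraries had 109 and 84.7 CPM. Impdh1, an enzyme of guanine nucleotide synthesis, was the 1 called gene of 24 in nucleotide and one-carbon synthesis (median 0.47). It read 164 and 174 CPM with Ebf1, against 13.9 and 21.8 CPM in Ebf1-KO (3.24 ± 0.29, adjusted p = 8.8e-06), and was higher than WT, at 73.4 and 70.2 CPM (1.24 ± 0.27, adjusted p = 0.00742). Of 25 ribosome biogenesis genes, edgeR called 0, with 7 at an unadjusted p under 0.05, and DESeq2 called 0. In this list 22 had a fold change above 0, and the median was 0.39. Among them Ncl, the nucleolar protein nucleolin, read 1491 and 2047 CPM with Ebf1, against 1085 and 1412 CPM in Ebf1-KO (0.50 ± 0.29, adjusted p = 0.632), and Nop58, a small nucleolar RNP protein, read 236 and 254 CPM, against 205 and 224 CPM (0.19 ± 0.20, adjusted p = 0.939). Small nucleolar RNA genes overlap both. Of 22 glycolysis genes Pfkfb3, a regulator of glycolysis, and Slc16a1, a lactate carrier, rose by 1.76 ± 0.29 (adjusted p = 0.00237) and 1.64 ± 0.28 (adjusted p = 0.00318). Both calls were lost without Ebf1-KO replicate 1, at 0.0581 and 0.0709.

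Signalling genes showed a few large changes within lists that mostly did not pass. Cish, a feedback inhibitor induced by STAT5, read 164 and 229 CPM with Ebf1, against 36.7 and 43.6 CPM in Ebf1-KO (2.29 ± 0.26, adjusted p = 7.3e-05). Il2ra, the interleukin-2 receptor alpha chain, which pre-B cells express, read 51.5 and 35.3 CPM, against 9.47 and 11.8 CPM (2.03 ± 0.26, adjusted p = 0.000301). Il2rb, the beta chain of the receptors for interleukin-2 and interleukin-15, moved the other way, at 14.1 and 16.3 CPM, against 62.4 and 104 CPM (-2.45 ± 0.27, adjusted p = 6.9e-05). Kit, the receptor for the KIT ligand in the medium, read 37.8 and 40.2 CPM, against 106 and 127 CPM (-1.58 ± 0.26, adjusted p = 0.00228). Il21r and Il4ra, receptor chains for interleukin-21 and interleukin-4, fell too (-1.97 ± 0.46 and -1.85 ± 0.44, adjusted p = 0.0304 and 0.0329), and no fit without 1 of the 4 libraries kept either call (largest 0.356 and 0.347). In all, 2 of 24 cytokine receptor and STAT genes rose and 4 fell, with a median of -0.22.

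Of 21 PI3K pathway genes 4 rose, Foxo1 among them, and 17 did not pass; the median of 0.05 changed sign with the scaling. Sgk1, a kinase activated through PI3K, read 13.9 and 13.2 CPM with Ebf1, against 1.42 and 1.31 CPM in Ebf1-KO (3.31 ± 0.41, adjusted p = 0.000199). Inpp5d, the lipid phosphatase SHIP1, and Pik3cd, the catalytic subunit p110δ, rose by 0.82 ± 0.20 (adjusted p = 0.0366) and 0.74 ± 0.18 (adjusted p = 0.0426), and neither kept the call without any single library (largest 0.515 and 0.434). Library totals alone (0.153) or leaving out WT (0.0599) also ended the call of Inpp5d. Pik3cd, which Mir7023 overlaps, lost it under 3 other scalings (0.0527 to 0.241), with Rn45s left out (0.0583) and with WT left out (0.0679). Of 18 genes of pre-B receptor and PI3K feedback, Dusp5 rose by 1.77 ± 0.42 (adjusted p = 0.0316) and lost its call without any 1 library (largest 0.286) and with library totals only (0.06). Rasgrp3 fell by 1.84 ± 0.35 (adjusted p = 0.00686) and Lat2 fell by 1.94 ± 0.40 (adjusted p = 0.0135). The call of Rasgrp3 was lost without Ebf1-KO with Ebf1 replicate 2 (0.163), Ebf1-KO replicate 1 (0.0797) and with only the 4 libraries fitted, and that of Lat2 without Ebf1-KO with Ebf1 replicate 1 (0.0838) or replicate 2 (0.207) or Ebf1-KO replicate 1 (0.181).

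Bcl2, which blocks mitochondrial cell death, was the 1 of 15 BCL2 family genes with a call. It read 107 and 101 CPM with Ebf1, against 382 and 467 CPM in Ebf1-KO (-2.03 ± 0.20, adjusted p = 2.5e-05), and 82.6 and 90.1 CPM in WT. The call held without each of the 4 libraries in turn, and Mir3473f overlaps the gene.

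The genes that fell most included several known from natural killer, T, myeloid and progenitor cells. Cd7, a surface protein of T and natural killer cells, read 7.52 and 5.96 CPM with Ebf1, against 60.3 and 92.1 CPM in Ebf1-KO (-3.50 ± 0.41, adjusted p = 0.000119), and 0 and 0.114 CPM in WT. Itgb7, the integrin beta chain for gut homing, read 9.06 and 6.10 CPM, against 60.5 and 75.5 CPM (-3.17 ± 0.46, adjusted p = 0.000932), and Chst11, a chondroitin sulfotransferase, read 2.07 and 2.91 CPM, against 22.6 and 17.8 CPM (-3.01 ± 0.41, adjusted p = 0.000417). Oasl2, an interferon-induced gene, read 44.6 and 26.7 CPM, against 256 and 304 CPM (-2.97 ± 0.41, adjusted p = 0.000534). These 4 falls held without each of the 4 libraries in turn. Of the 14 largest falls, 10 were genes averaging under 1 CPM in WT. Among all 111 fallen genes this held for 22, or 19.8%, the same share as among all tested genes (19.8%). By the test against WT, 10 of the 14 stayed higher in Ebf1-KO with Ebf1. So did 48.6% of all fallen genes, against 6.94% of all tested genes.

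The remaining 10 of the 14 largest falls depended on single libraries. Cd34, a marker of stem and progenitor cells, read 32.1 and 40.9 CPM with Ebf1, against 249 and 296 CPM in Ebf1-KO (-2.90 ± 0.49, adjusted p = 0.00398), and 0 counts in both WT libraries. It was lost without Ebf1-KO with Ebf1 replicate 1 (0.0519) and it overlaps Gm16897. Igf1, a growth factor made by macrophages among others, fell by 3.02 ± 0.52 (adjusted p = 0.00371), a call lost without either library of Ebf1-KO with Ebf1 (0.0562 and 0.0606). Klri2, a killer cell lectin-like receptor, fell by 2.92 ± 0.55 (adjusted p = 0.00674) and was lost without Ebf1-KO with Ebf1 replicate 2 (0.147) or Ebf1-KO replicate 1 (0.0535). Cd244, a receptor of natural killer cells, fell (-3.50 ± 0.67, adjusted p = 0.00721), a call lost without any library but Ebf1-KO replicate 2, with largest adjusted p 0.0982. Ctnnd2, a catenin known from neurons, fell by 2.75 ± 0.57 (adjusted p = 0.0140) and was lost without Ebf1-KO with Ebf1 replicate 1 (0.187) or Ebf1-KO replicate 2 (0.109). Olfm1, L1cam, Klrd1, Adgre1 and Tshz3 lost their calls without any 1 of the 4 libraries, with largest adjusted p-values of 0.494, 0.343, 0.454, 0.321 and 0.145. Klrd1 also lost it with upper-quartile scaling (0.0512).

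As lists, markers of other blood cells had medians mostly below 0, and most members did not pass. Over all tested genes 2.21% rose and 0.763% fell. The lists were chosen with earlier results of these data known, so their counts are a description. Of 18 natural killer and innate lymphoid genes 3 fell (Cd7, Il2rb and Klrd1), Gzma rose and 14 did not pass, with a median of -1.47. Gzma, a granzyme of cytotoxic cells, read 69.6 and 41.3 CPM with Ebf1, against 2.01 and 0.311 CPM in Ebf1-KO (5.62 ± 1.23, adjusted p = 0.0194), and lost its call without Ebf1-KO with Ebf1 replicate 1 (0.0594), without Ebf1-KO replicate 2 (0.192) and in DESeq2. Of 10 dendritic genes Runx2 and Ccr9, both known in plasmacytoid dendritic cells, fell and 8 did not pass (median -1.57). Runx2 read 191 and 206 CPM, against 519 and 683 CPM (-1.60 ± 0.19, adjusted p = 0.000141), and 2.12 CPM in each WT library. Ccr9, a homing receptor, read 305 and 295 CPM, against 789 and 960 CPM (-1.54 ± 0.30, adjusted p = 0.00770), a call lost without any library but Ebf1-KO replicate 1 (largest 0.0908).

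Of 19 T lineage genes Il2ra rose and Fyb and Cd27 fell, with a median of -0.91. Fyb, an adaptor of T cell receptor signalling, fell by 2.04 ± 0.47 (adjusted p = 0.0311) and Cd27, a costimulatory receptor, fell by 1.56 ± 0.37 (adjusted p = 0.0329), and neither kept its call without any single library of the 4 (largest 0.277 and 0.408). E130112N10Rik and Mir8113 overlap Cd27. Of 23 myeloid genes Itgam, Itgb2 and Cybb fell and Csf2rb rose, with a median of -0.44. Itgam, the integrin CD11b, read 29.3 and 18.7 CPM with Ebf1, against 76.6 and 108 CPM in Ebf1-KO (-1.94 ± 0.36, adjusted p = 0.00596), and each of these 4 calls was lost without 2 or more of the 4 libraries, with largest adjusted p-values of 0.133, 0.147, 0.363 and 0.253. Csf2rb, which overlaps Mir7676-1 and Mir7676-2, also lost it with library totals only (0.101). Summed over the lists, natural killer genes held 294 and 291 CPM with Ebf1 and 565 and 685 CPM in Ebf1-KO, myeloid genes 781 and 711 CPM against 1255 and 1290 CPM, and dendritic genes 1046 and 1082 CPM against 2163 and 2622 CPM. Of 13 erythroid and megakaryocyte genes only Car2, a carbonic anhydrase, rose, with 124 and 189 CPM against 19.6 and 21.4 CPM (2.93 ± 0.44, adjusted p = 0.00111).

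The OP9 cells under the cultures could also add RNA. Of 16 markers of such stroma 8 had enough reads to be tested, edgeR called 0 of them with 1 at an unadjusted p under 0.05, DESeq2 called 0, and the median was -1.38. Their sum was 31.9 and 28.3 CPM with Ebf1 and 76.6 and 81.8 CPM in Ebf1-KO. Most of it was Pdgfrb, with 18.8 and 19.1 CPM against 58.1 and 63.3 CPM (-1.68 ± 0.61, adjusted p = 0.249). Thbs1, a secreted matrix protein, read 4.34 and 3.68 CPM, against 5.45 and 5.49 CPM (-0.45 ± 0.73, adjusted p = 0.986), and Sparc, another, read 3.52 and 2.40 CPM, against 4.30 and 7.98 CPM (-1.06 ± 1.01, adjusted p = 0.909). Col1a1, a defining collagen gene of fibroblast-like cells, had 0 counts in both libraries with Ebf1 and 0.320 and 0.242 CPM in Ebf1-KO. The part of carried-over stroma in any fall was not tested.

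Of 17 stem and progenitor genes 5 fell (Cd34, Kit, Mycn, Satb1 and Hoxa9), Cd93 rose and 11 did not pass, with a median of -0.56. Satb1, a chromatin organizer, read 361 and 413 CPM with Ebf1, against 747 and 705 CPM in Ebf1-KO (-0.91 ± 0.18, adjusted p = 0.0112), a call that no fit without 1 of the 4 libraries kept (largest 0.193). Hoxa9, a homeobox gene of progenitors, read 90.2 and 68.9 CPM, against 314 and 206 CPM (-1.71 ± 0.39, adjusted p = 0.0252), a call lost without any library but Ebf1-KO replicate 2 (largest 0.314). Cd93, a surface marker of immature B cells and progenitors, read 774 and 982 CPM, against 358 and 425 CPM (1.16 ± 0.23, adjusted p = 0.00827), and was lost without Ebf1-KO with Ebf1 replicate 2 (0.134) or Ebf1-KO replicate 1 (0.14).

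Of 22 homing and adhesion genes 5 fell, Cxcr4 rose and 16 did not pass, with a median of -0.62. Itga4, the alpha chain of the integrins VLA-4 and α4β7, read 415 and 407 CPM with Ebf1, against 988 and 1292 CPM in Ebf1-KO (-1.47 ± 0.24, adjusted p = 0.00218; it overlaps Cerkl), a call that held without each library, as did that of its partner Itgb7. Cxcr4, the receptor that holds cells in bone marrow, rose by 0.90 ± 0.19 (adjusted p = 0.0135), Ccr7 fell by 2.01 ± 0.46 (adjusted p = 0.0268) and Itgal fell by 0.96 ± 0.23 (adjusted p = 0.0314). These 3 lost their calls without 3 or more of the 4 libraries (largest 0.2, 0.231 and 0.487), and Cxcr4 also with library totals only (0.0734). Of 25 interferon response genes Oasl2 and Oas2 fell and 23 did not pass, though 12 were at an unadjusted p under 0.05, and the median was -0.67. Oas2 read 75.1 and 37.2 CPM, against 341 and 174 CPM (-2.20 ± 0.43, adjusted p = 0.00888), and was lost without Ebf1-KO with Ebf1 replicate 2 (0.143) or Ebf1-KO replicate 1 (0.114). Of 10 MHC class II genes Cd74, the invariant chain, fell, with 71.5 and 77.0 CPM against 147 and 298 CPM (-1.59 ± 0.34, adjusted p = 0.0166), a call lost without any library but Ebf1-KO replicate 1 (largest 0.33); Mir5107 overlaps Cd74.

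Immediate early and stress genes follow handling and RNA quality. Of 17 immediate early genes Jun, a subunit of the AP-1 factor, rose and 16 did not pass. Jun read 23.3 and 10.6 CPM with Ebf1, against 6.09 and 4.35 CPM in Ebf1-KO (1.70 ± 0.38, adjusted p = 0.0217), a call lost without any library but Ebf1-KO with Ebf1 replicate 2 (largest 0.413). Of 15 stress and RNA quality genes edgeR called 0, with 1 at an unadjusted p under 0.05, and DESeq2 called 0. Some differed between replicates. Malat1 read 7032 and 3553 CPM with Ebf1 and 8952 and 3058 CPM in Ebf1-KO. Neat1 read 585 and 315 CPM, and 1139 and 209 CPM. Both were higher in replicate 1 of each group. Hspa5 was higher in replicate 2, at 587 and 624 CPM, and 485 and 652 CPM. The cause was not tested.

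**Figure D3:**
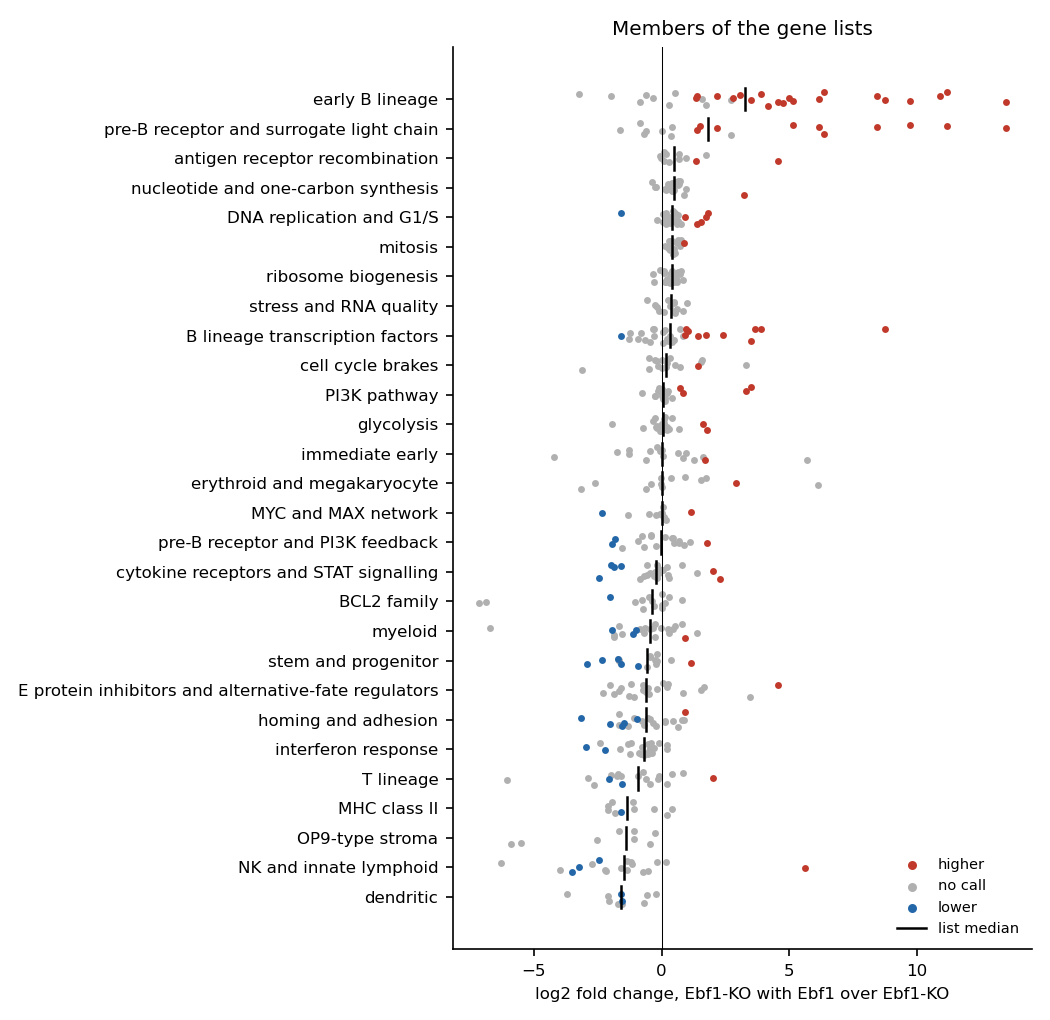
Each point is 1 tested member of a gene list, placed by its log2 fold change of Ebf1-KO with Ebf1 over Ebf1-KO, with risen and fallen genes coloured and the median of each list marked. The early B lineage list reaches furthest to the right with a median of 3.27, and the natural killer and dendritic lists have medians of -1.47 and -1.57. The lists were chosen with earlier results of these data known.

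Of the 14 largest rises 9 were of genes averaging under 1 CPM in WT. Tnnt2, cardiac troponin T, read 150 and 181 CPM with Ebf1, against 0.183 and 0.173 CPM in Ebf1-KO (9.83 ± 0.78, adjusted p = 4.6e-06), and 0 and 0.0572 CPM in WT. Ssc5d, a secreted scavenger receptor protein, read 85.7 and 105 CPM, against 0.137 and 0.207 CPM (9.04 ± 0.54, adjusted p = 7.4e-08), and 3.31 and 1.89 CPM in WT. Col26a1, a collagen gene, had 76.5 and 69.1 CPM with Ebf1 and 0 counts in both Ebf1-KO libraries, at least 1234-fold higher (adjusted p = 9.3e-06), and 0.155 and 0.0572 CPM in WT. In these 3 genes the libraries with Ebf1 stood above both Ebf1-KO and WT. Pax5-KO cells with empty vector held Ssc5d at 62.3 and 59.4 CPM and Col26a1 at 10.4 and 6.26 CPM, but Tnnt2 at 0.142 and 0.351 CPM.

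Apoa4, an apolipoprotein of the gut, had 39.4 and 37.9 CPM with Ebf1 and 0 counts in both Ebf1-KO libraries, at least 655-fold higher (adjusted p = 2.6e-05). Pkp1, a plakophilin of skin junctions, had 20.8 and 30.4 CPM and 0 counts, at least 434-fold higher (adjusted p = 0.000185), and Tcf15, a mesodermal transcription factor, had 14.7 and 8.13 CPM and 0 counts, at least 193-fold higher (adjusted p = 0.00126). Lgr6, a receptor for R-spondins, read 54.1 and 61.1 CPM with Ebf1 and had 1 count over the Ebf1-KO libraries (0 and 0.0345 CPM), a ratio of 2972 with a counting interval of 533 to 117426 (adjusted p = 0.00263). Rbm24, a muscle splicing regulator, read 17.6 and 12.1 CPM, against 0 and 0.0345 CPM, a ratio of 720 (129 to 28484; adjusted p = 0.000306). Tcf15, Lgr6 and Rbm24 had 0 counts in both WT libraries as well, against which Ebf1-KO with Ebf1 was at least 140-, 706- and 182-fold higher. Pax5-KO cells with empty vector held Tcf15 at 1.66 and 5.38 CPM, Lgr6 at 2.51 and 1.58 CPM and Rbm24 at 10.9 and 8.92 CPM. Gal, the neuropeptide galanin, also at 0 in WT, read 27.1 and 35.0 CPM, against 0.0458 and 0.0691 CPM, a ratio of 543 (186 to 2636; adjusted p = 0.00486), and lost its call without Ebf1-KO replicate 1 (0.0735) or replicate 2 (0.0696). Adamts7, a secreted metalloprotease, read 25.4 and 29.0 CPM, against 0.0915 and 0 CPM, a ratio of 703 (194 to 5810; adjusted p = 3.6e-05).

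Not all large rises were at 0 in WT. Clgn, a chaperone of the endoplasmic reticulum known from the testis, read 61.1 and 76.7 CPM with Ebf1, against 0 and 0.104 CPM in Ebf1-KO, a ratio of 1201 (411 to 5828; adjusted p = 1.3e-08), and 161 and 139 CPM in WT. Ms4a1, the B cell surface protein CD20, had 18.9 and 14.7 CPM with Ebf1 and 0 counts in both Ebf1-KO libraries, at least 285-fold higher (adjusted p = 0.000306; it overlaps 4930526L06Rik), and 8.18 and 17.1 CPM in WT. Over the 321 risen genes, 42 or 13.1% averaged under 1 CPM in WT, against 19.8% of all tested genes. Among the 73 risen genes that averaged under 1 CPM in Ebf1-KO the number was 32, or 43.8%, against 74.4% of all tested genes under 1 CPM in Ebf1-KO.

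EBF1 peaks called in the 230-238 pre-B line, which carries its own Ebf1, were set beside the calls to describe where risen and fallen genes lie. A peak centre lay within 1000 bases of the start of 128 risen genes, or 39.9% (exact 95% interval 34.5 to 45.5, counting error only), of 26 fallen genes, or 23.4% (15.9 to 32.4), and of 27.4% of all tested genes. Within 5000 bases the shares were 60.4%, 34.2% and 37.9%. Risen genes under 1 CPM in Ebf1-KO had a peak within 1000 bases in 27.4% of cases (17.6 to 39.1), and those at 1 CPM or more in 43.5% (37.3 to 50.0). In the same order, the shares within 5000 bases were 43.8% (32.2 to 55.9) and 65.3% (59.0 to 71.2), against 37.9% of all tested genes. At 20000 bases they were 71.2% (59.4 to 81.2) and 80.2% (74.7 to 85.0), against 56.8%. With only the upper part of the peak list by score, within 1000 bases, they were 19.2% (10.9 to 30.1) and 25.4% (20.1 to 31.3), against 11.5%. Genes are not independent, so these intervals are a description and no test. Risen genes split by level are set beside all tested genes, not beside tested genes at the same level in Ebf1-KO.

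**Figure D4:**
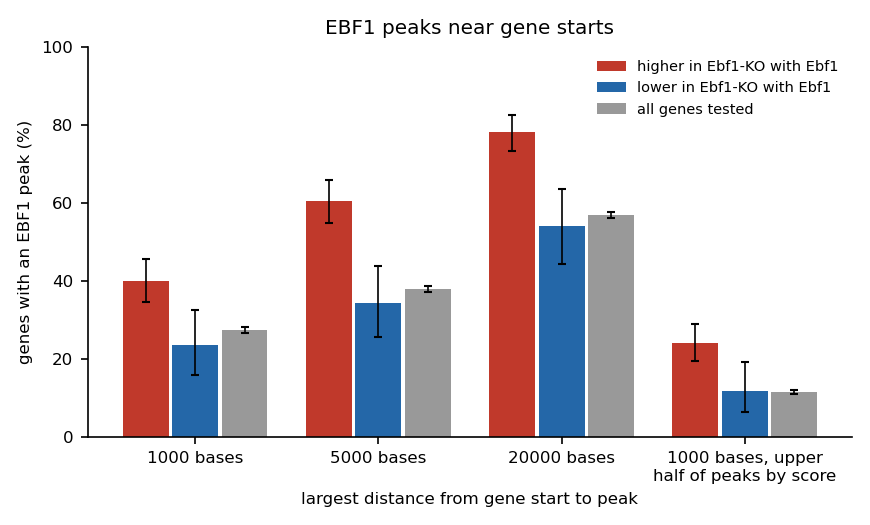
Bars give the percentage of risen, fallen and all tested genes with an EBF1 peak within 1000, 5000 and 20000 bases of the gene start, with exact 95% intervals. Risen genes stand above all tested genes at each distance, at 39.9%, 60.4% and 78.2% against 27.4%, 37.9% and 56.8%.

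The risen genes with the highest peak scores, after Igll1, included Ucp2, Wdfy4 and Cd79b. Ucp2, a mitochondrial carrier, read 1926 and 2628 CPM with Ebf1, against 291 and 470 CPM in Ebf1-KO (2.58 ± 0.33, adjusted p = 0.000269), with a peak of score 271 centred at -315. Wdfy4, a protein of antigen presentation, read 727 and 780 CPM, against 154 and 172 CPM (2.21 ± 0.18, adjusted p = 3.3e-06), with a peak of score 205 at -594; it overlaps Lrrc18. The peak at Cd79b, of score 200, was centred at -101. The others were 1700027J07Rik, with 0 counts in both Ebf1-KO libraries (at least 133-fold higher, adjusted p = 0.00228), and Ppm1f, Ell3 and Alpl. Ppm1f lost its call without Ebf1-KO replicate 1 (0.0609), and Ell3 and Alpl without 3 or more of the 4 libraries (largest 0.433 and 0.303). Ell3 also lost it with upper-quartile scaling (0.0528) and library totals only (0.0655), and Alpl with only the 4 libraries (0.215) and with WT left out (0.144). The fallen genes with the highest scores were Oasl2, Shisa5, Rinl and Vsir, of which the last 3 lost their calls without 2 or more of the 4 libraries (largest 0.463, 0.115 and 0.198). Leaving out WT also ended the call of Shisa5 (0.0619), and Cdh23 overlaps Vsir. The nearest peak centres were at -1498 from the start of Myc, 4276 from that of Pax5, 14677 from that of Foxo1 and -29123 from that of Rag1.

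The same vector was also put into Pax5-KO cells, in 4 libraries that share none with the comparison above. By their labels these cells lack Pax5 and not Ebf1. The vector thus added Ebf1 to the cells' own there, while in Ebf1-KO it put Ebf1 back. A difference between the 2 responses cannot tell this apart from the lack of Pax5. Ebf1 itself read 1644 and 1483 CPM in Pax5-KO with Ebf1, against 315 and 241 CPM in Pax5-KO (2.49 ± 0.20, adjusted p = 2.9e-05). Both libraries with the vector stood above the 857 and 893 CPM of Ebf1-KO with Ebf1. The part of this level in any difference between the responses was not tested. In Pax5-KO cells 255 genes rose and 269 fell with Ebf1, together 3.60% of the tested genes (1.75% and 1.85%). Of the genes that rose, 128 rose in both knockouts, which is 39.9% of those in Ebf1-KO and 50.2% of those in Pax5-KO. Of those that fell, 44 fell in both, 39.6% of those in Ebf1-KO and 16.4% of those in Pax5-KO. Apoa4 and Tnnt2 were among the genes that rose in both. Apoa4 had 48.9 and 53.1 CPM in Pax5-KO with Ebf1 and 0 counts in both Pax5-KO libraries, and Tnnt2 had 14.5 and 51.3 CPM against 0.142 and 0.351 CPM (6.95 ± 0.70, adjusted p = 0.000190).

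The 2 responses were compared with an interaction term, the response in Ebf1-KO minus that in Pax5-KO, which passed for 89 genes, 0.612% of those tested, with 84 above 0 (0.577%) and 5 below (0.0344%). The cultures also differed in Y-linked RNA: Ddx3y, on the Y chromosome, read 91.1 and 70.3 CPM in Ebf1-KO with Ebf1 and 76.4 and 74.1 CPM in Ebf1-KO, but averaged 0.0126 CPM in Pax5-KO with Ebf1 and 0 in Pax5-KO, so sex and genotype cannot be told apart here. Ddx3y was picked out after its values were seen. Some of the genes with a called interaction were well above 0 in Pax5-KO without Ebf1. Igll1 read 1074 and 802 CPM in Pax5-KO with Ebf1, against 419 and 536 CPM in Pax5-KO (0.97 ± 0.51, adjusted p = 0.299), and its interaction was 10.18 ± 0.94 (adjusted p = 2.9e-05). Pou2af1 read 205 and 298 CPM, against 131 and 83.2 CPM (1.23 ± 0.26, adjusted p = 0.0163), with an interaction of 7.52 ± 0.52 (adjusted p = 1.3e-06). Cd24a read 601 and 769 CPM, against 506 and 537 CPM (0.40 ± 0.19, adjusted p = 0.260), with an interaction of 4.58 ± 0.28 (adjusted p = 6.2e-07). Pax5 read 9.61 and 9.07 CPM, against 20.1 and 12.3 CPM (-0.79 ± 0.27, adjusted p = 0.125), with an interaction of 4.68 ± 0.41 (adjusted p = 1.8e-05); the deleted exons of Pax5 are not stated either. The count of 89 became 685 without Pax5-KO with Ebf1 replicate 2.

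In 9 genes the responses were called in opposite directions. Risen in Ebf1-KO and fallen in Pax5-KO were Cd72, Cd79a, Cdh1, Chst15, Ifitm1, Ly6d, Lynx1 and Tnfrsf13c, and the reverse was true of Hmga2. Cd79a is given above, and the rest, other than Hmga2, were picked out after their values were seen. Ly6d, a marker of B-biased lymphoid progenitors, read 103 and 123 CPM in Ebf1-KO with Ebf1, against 10.8 and 16.3 CPM in Ebf1-KO (3.06 ± 0.39, adjusted p = 0.000240). It read 70.5 and 46.2 CPM in Pax5-KO with Ebf1, against 299 and 409 CPM in Pax5-KO (-2.60 ± 0.38, adjusted p = 0.00164). Tnfrsf13c, the receptor for the survival factor BAFF, read 45.8 and 60.0 CPM in Ebf1-KO with Ebf1, against 10.7 and 18.7 CPM in Ebf1-KO (1.85 ± 0.26, adjusted p = 0.000768), and 83.9 and 74.4 CPM in Pax5-KO with Ebf1, against 254 and 349 CPM in Pax5-KO (-1.93 ± 0.26, adjusted p = 0.00121). For Ly6d and Tnfrsf13c both calls and the interaction held without each library in turn. For the other 7 at least 1 of the calls was lost without some library: the fall of Cd79a in Pax5-KO was lost without Pax5-KO replicate 1 (0.117), and Hmga2 lost its fall in Ebf1-KO without any 1 of the 4 libraries (largest 0.195). 9230105E05Rik and Mir763 overlap Hmga2.

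**Figure D5:**
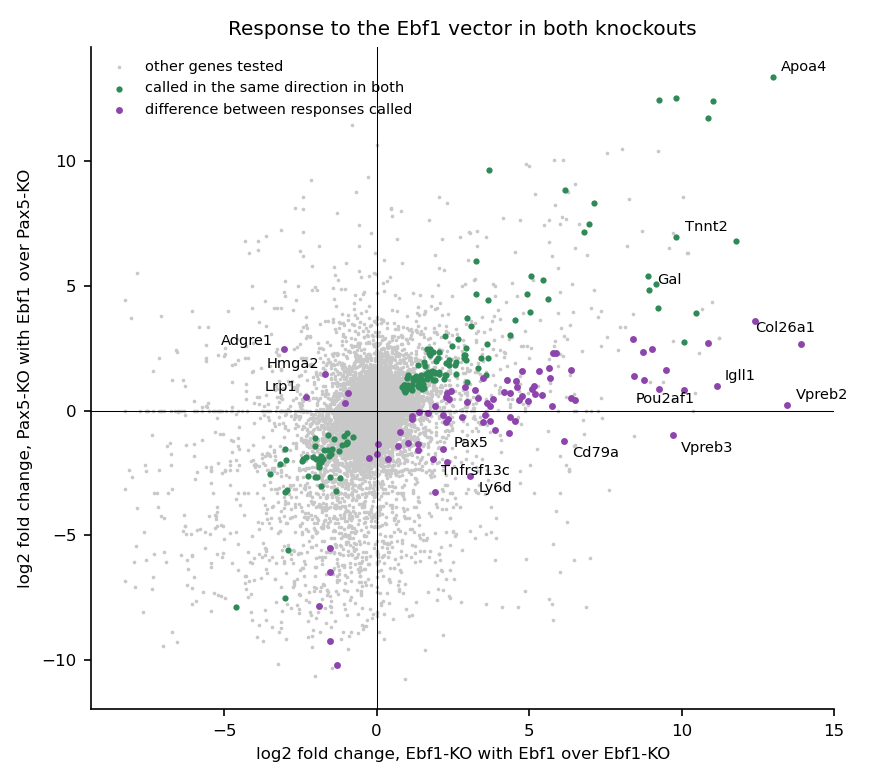
Each point is 1 tested gene, with its log2 fold change in Ebf1-KO (Ebf1-KO with Ebf1 over Ebf1-KO) on the horizontal axis and in Pax5-KO (Pax5-KO with Ebf1 over Pax5-KO) on the vertical axis. Purple marks all genes with a called interaction, and green marks genes called in the same direction in both knockouts that have no called interaction. Igll1 and Vpreb2 lie far to the right near 0 on the vertical axis.

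Pax5 given to Ebf1-KO cells in place of Ebf1 left a different set of levels. Between Ebf1-KO with Ebf1 and Ebf1-KO with Pax5, 689 genes were higher (4.74%) and 795 lower (5.46%), together 10.2% of those tested. Of the 321 genes that rose with Ebf1, 209 (65.1%) were higher than with Pax5 and 15 (4.67%) lower. The other 97 (30.2%) had no call, among them E2f2 (-0.07 ± 0.24) and Cd93 (-0.01 ± 0.22). Both comparisons use the same libraries with Ebf1, so these shares are not independent of the rises. Igll1 stood at 852 and 867 CPM with Ebf1, against 0.345 and 4.89 CPM with Pax5 (8.31 ± 0.71, adjusted p = 4.5e-06). Cd79a stood at 34.2 and 41.7 CPM, against 7.93 and 6.21 CPM with Pax5 (2.43 ± 0.26, adjusted p = 3.4e-05). Other genes were lower with Ebf1. Cd74, at 71.5 and 77.0 CPM with Ebf1, stood at 1974 and 2307 CPM with Pax5 (-4.85 ± 0.39, adjusted p = 2.9e-06), and Siglecg, an inhibitory lectin of B cells, at 0.771 and 1.23 CPM with Ebf1, stood at 195 and 132 CPM with Pax5 (-7.32 ± 0.62, adjusted p = 4.5e-06). Pald1 stood at 0.0482 and 0.114 CPM with Ebf1, against 25.8 and 29.1 CPM with Pax5 (-8.24 ± 1.01, adjusted p = 0.000140). It was also below Ebf1-KO, at 1.83 and 2.59 CPM (-4.61 ± 0.91, adjusted p = 0.0106), a call lost without either library with Ebf1 (0.13 and 0.0998) or Ebf1-KO replicate 2 (0.0577). Myc was higher with Ebf1, at 308 and 418 CPM, than with Pax5, at 66.8 and 84.3 CPM (2.26 ± 0.26, adjusted p = 5.7e-05). Ebf1-KO with empty vector lay between them, at 143 and 187 CPM, and the rise with Ebf1 over it was 1.14 ± 0.25.

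Set against WT, Ebf1-KO with Ebf1 had 1010 genes higher (6.94%) and 614 lower (4.22%), together 11.2% of those tested. Among the higher were Runx2, Ccr9 and Cd34, which fell with Ebf1. Runx2 stood at 191 and 206 CPM in Ebf1-KO with Ebf1, against 2.12 CPM in each WT library (6.55 ± 0.25, adjusted p = 9.0e-10), Ccr9 at 305 and 295 CPM, against 2.23 and 1.77 CPM (7.22 ± 0.40, adjusted p = 3.0e-08), and Cd34 was at least 447-fold higher than in WT. Among the lower were genes that rose with Ebf1 without nearing WT. Alpl, alkaline phosphatase, stood at 0.627 and 0.456 CPM with Ebf1, against 170 and 135 CPM in WT (-8.15 ± 0.57, adjusted p = 2.1e-06), and Edaradd, an adaptor of a TNF receptor family member, at 1.35 and 0.827 CPM, against 146 and 178 CPM (-7.24 ± 0.79, adjusted p = 1.9e-05). Edaradd rose over Ebf1-KO (ratio 26.0, 6.86 to 219; adjusted p = 0.0424), a call no fit without 1 of the 4 libraries kept (largest 0.313) and that was also lost with upper-quartile scaling (0.0528), only the 4 libraries (0.0546) or WT left out (0.0737).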

How the data were processed

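RNA was sequenced from fetal liver cells on OP9 stroma. The authors deposited raw exon counts per gene, made with HOMER's analyzeRepeats.pl on mm10 per the file headers, whose command sets no strand option; overlapping genes are therefore given for the called genes that the rule below names. The submitters' processing notes list HOMER 4.8 and STAR 2.6.0b-1 without a stated role. All columns were mapped by name (0 columns of per-sample values unused), except 1 Pax5-KO column with empty pMiG, which has no number and is called replicate 1 here because its partner carries a 2. The authors' EBF1 peak list, with a score and a fold over control per peak, was deposited for the 230-238 line and holds 17230 peaks made from 2 ChIP-seq replicates per the labels.

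Counts of 14 libraries in 7 groups were fitted together with edgeR 4.0.16 (R 4.3.3; TMM scaling, filterByExpr, quasi-likelihood test), with Benjamini-Hochberg adjustment over 14550 genes and a threshold of 0.05. DESeq2 1.42.0 was an alternative, beside 3 other scalings, no filter, only the 4 libraries, a replicate block, each library left out, and, added after the data were seen, Rn45s or the WT libraries left out. Where a group had 0 counts the fold is a bound from 3 counts over the group, and where it had 1 to 3 counts a ratio with an exact interval is given; intervals and floors cover counting error only. Where leaving out a library left 1 in a group, that library was assumed to vary like the other groups. The scripts were tested on simulated data.

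Genes were named by rule: Ebf1, Pax5 and Myc; the 14 largest rises and 14 largest falls at 10 CPM or more with libraries that do not overlap; up to 5 called members per list and direction, or 3 members of lists with none; up to 5 per direction in each further contrast; and 8 risen and 4 fallen genes by peak score. A gene that the rule names is not reported here. The members and the 28 lists were chosen with earlier results of these data known, and the promoter motifs after the data were seen. Promoters were RefSeq's GRCm38.p6 windows of 300 bases, of which the 250 before the start were searched.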

Additional observations from a re-analysis of the deposited data

Results flagged for a closer look

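For 27 of the genes named by the rule, the response to Ebf1 in Ebf1-KO cells differed from that in Pax5-KO cells by the interaction test (edgeR, adjusted p under 0.05 over all tested genes). The values are log2 differences of the 2 responses, Ebf1-KO minus Pax5-KO. In B lineage genes they were 10.18 for Igll1, 13.24 for Vpreb2, 10.69 for Vpreb3, 7.07 for Vpreb1, 7.35 for Cd79a, 4.15 for Cd79b, 4.58 for Cd24a, 3.43 for Cecr2 and 3.37 for Rag1. In transcription factors they were 4.68 for Pax5, 7.52 for Pou2af1, 2.18 for Foxo1 and 4.95 for Hes1. In genes that are in no list they were 11.23 for Col26a1, 9.27 for Clgn, 6.55 for Ssc5d, 8.78 for Pkp1, 8.39 for Rbm24 and 5.53 for Car3. In signalling, surface and metabolic genes they were 1.51 for Cd93, 1.74 for Cish, 2.80 for Sgk1 and 2.42 for Impdh1. Below 0 were Adgre1 at -5.52, Hmga2 at -3.16, Lrp1 at -2.88 and Ugcg at -1.34. Vpreb2, Vpreb3, Col26a1 and Pkp1 had 0 counts in both Ebf1-KO libraries, so their fitted differences depend on the prior count of the fit and are no bounds. Rbm24, Clgn and Car3 had 1, 3 and 4 counts over the Ebf1-KO libraries, so their differences are loosely set as well. With a library left out they ran from 7.67 to 10.72, from 8.48 to 12.99 and from 4.70 to 9.61.

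Of these, 16 kept the call without each of the 8 libraries in turn and 11 lost it at least once. Rbm24 (0.0636) and Impdh1 (0.0533) lost it without Ebf1-KO replicate 1. Hmga2 lost it without Ebf1-KO with Ebf1 replicate 2 or either Pax5-KO library (largest 0.061). Pkp1, Adgre1, Cd93, Cish, Sgk1, Lrp1, Ugcg and Car3 lost it without 5 to 7 of the 8 libraries, with largest adjusted p-values of 0.149, 0.123, 0.254, 0.217, 0.149, 0.164, 0.224 and 0.218.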

How the results depend on the processing

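Of 114 named genes 105 were called. Of these, 48 kept the call without each of the 4 libraries in turn and 57 lost it at least once, while 15 lost it under another scaling, tool, filter or fit. The 321 rises became 527 with only the 4 libraries fitted and 153 to 231 with a library left out. The 111 falls became 261 in DESeq2, 256 without the filter, 428 with only the 4 libraries and 24 to 51 with a library left out, so the falls moved more than the rises when a library was left out, in particular those of Ebf1-KO with Ebf1, without which 27 or 24 were called. The 89 interaction calls became 221 in DESeq2, 269 without the filter and 48 to 685 with a library left out. The 1484 calls against Ebf1-KO with Pax5 became 2308 in DESeq2 and 635 to 939 with a library left out, and the 1624 against WT became 879 to 1218. Myc was 1.03 with library totals only (adjusted p = 0.0727) and 0.90 to 1.36 with a library left out. Peak shares for risen, fallen and tested genes were 60.4%, 34.2% and 37.9% within 5000 bases, 78.2%, 54.1% and 56.8% within 20000, and 24.0%, 11.7% and 11.5% for the upper part of the list by score within 1000. The direction turned only in uncalled genes, in Npm1 (-0.10 to 0.42 with a library left out, -0.03 without Ebf1-KO with Ebf1 replicate 2), Malat1 (-0.75 to 0.77, and 0.23 without that same library), Hspa5 (-0.13 to 0.34, and -0.01 with library totals only) and Neat1 (-1.31 to 1.09); the cause was not tested.

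The replicate numbers were not taken to pair the samples, since there are only 2 pairs and no source says what they share, although same-numbered columns carry a common suffix of unstated meaning in the file header; deviations of same-numbered libraries of Ebf1-KO with Ebf1 and Ebf1-KO correlated at 0.195. With a replicate block 378 genes rose and 148 fell, among them all 321 and 111, Myc was 1.13 (adjusted p = 0.00216), and 0 named genes lost a call. With 2 libraries per group, a missed call does not show that a gene was unaltered.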

Other observations

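The values below were picked out after they were seen. H19, an imprinted long noncoding RNA of fetal tissues, read 5056 and 6311 CPM in Ebf1-KO with Ebf1, against 266 and 324 CPM in Ebf1-KO (4.27 ± 0.29, edgeR adjusted p = 4.6e-07), a call that held without each of the 4 libraries in turn. It averaged 466 CPM in WT, so Ebf1-KO with Ebf1 was higher than WT by 3.61 ± 0.28 (adjusted p = 9.3e-07). In Pax5-KO cells it averaged 18929 CPM with Ebf1 and 8024 CPM without (1.24 ± 0.26, adjusted p = 0.0169), a call lost without either Pax5-KO library (largest 0.11). The microRNA gene Mir675, which lies within H19 so that reads can be shared, read 28.0 and 39.4 CPM in Ebf1-KO with Ebf1, against 0.778 and 1.80 CPM in Ebf1-KO (4.69 ± 0.63, adjusted p = 0.000392).

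Xist, transcribed from the inactive X chromosome, and Ddx3y, on the Y chromosome, describe the sex of the cultures. Beside the Ddx3y levels given above, Xist read 2.31 and 1.11 CPM in Ebf1-KO with Ebf1, against 1.24 and 1.52 CPM in Ebf1-KO, and averaged 6512 CPM in Pax5-KO with Ebf1 and 3664 CPM in Pax5-KO. Neither gene passed between Ebf1-KO with Ebf1 and Ebf1-KO.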
